A study of Mus musculus with 4 samples.

Results

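The genes described here run the breakdown of glucose to lactate and the response of cells to low oxygen. They number 36 of the 20026 gene names on the array that matched a RefSeq symbol, were chosen by name, and are covered by 60 of 41174 non-control probes. The signal of a gene is that of its brightest probe. RNA came from the left ventricle of mice at day 7 after myocardial infarction (MI), in which the left anterior descending artery had been tied off for good, and was hybridized to 4 single-colour Agilent whole mouse genome arrays. The KDM5B-KO group (KO) carried a CRISPR/Cas9 deletion in the JmjC domain of the histone demethylase KDM5B together with a frameshift, in all cells and not only in heart muscle, and the wild-type group (WT) did not. Each group had 2 arrays, numbered 2 and 3 in the labels and called WT 2, WT 3, KO 2 and KO 3. All mice had an infarct, were labelled male and were 8 to 10 weeks old, and no sham-operated hearts were on the arrays analysed here. The labels do not say whether the arrays of a group came from separate animals, so p-values measure only the spread between these samples. Xist and Y-linked signals, given below, differed between the 2 arrays of each group, as they would not for the same animal.

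Glycolysis splits glucose in the cytoplasm and ends in pyruvate, which enters mitochondria or is reduced to lactate and exported. Several steps have a form that is abundant in striated muscle and another that is found in most cells, so a piece of tissue rich in cardiomyocytes and a piece rich in scar or leukocytes use different genes for the same reaction. When oxygen is low, the prolyl hydroxylases of the EGLN family no longer mark the alpha subunits of hypoxia-inducible factor (HIF) for the VHL ubiquitin ligase, HIF accumulates, and it binds short core motifs in the promoters and enhancers of glycolytic and stress genes. MEF2 factors act on many genes of heart and skeletal muscle.

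Promoters of Pgam2, Pgam1, Ldha and Slc16a3 are shown to set the letters beside the values that follow. Within the array numbers the signals of Pgam1 and Slc16a3 moved opposite to that of Pgam2. Ldha was highest on KO 2, as Pgam2 was. The HIF core was searched as ACGTG and GCGTG on both strands, thus also as CACGT and CACGC, and overlapping matches counted as 1 site. MEF2 was searched with its consensus, which is its own reverse complement. Windows were the 250 bases before each annotated start in the RefSeq promoters of GRCm38.p6. Of the 36 genes, 32 matched with 44 windows, and Slc2a4, Epas1, Ndrg1 and Hmox1 were not matched. Capitals mark the MEF2 match in the muscle phosphoglycerate mutase Pgam2 (chr11:5803827-5803916, minus strand) and HIF cores in its ubiquitous counterpart Pgam1 (chr19:41911684-41911799, plus strand), in the lactate dehydrogenase Ldha (chr7:46845647-46845786, plus strand) and in the lactate exporter Slc16a3 (chr11:120949010-120949066, plus strand), each written 5′ to 3′.
Pgam2: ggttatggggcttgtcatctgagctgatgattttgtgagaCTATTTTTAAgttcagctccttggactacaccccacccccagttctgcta
Pgam1: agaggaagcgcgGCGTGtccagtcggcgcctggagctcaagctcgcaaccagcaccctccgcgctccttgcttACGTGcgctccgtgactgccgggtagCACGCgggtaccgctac
Ldha: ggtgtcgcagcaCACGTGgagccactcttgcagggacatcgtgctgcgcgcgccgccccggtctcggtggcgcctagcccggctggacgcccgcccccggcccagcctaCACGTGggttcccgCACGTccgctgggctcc
Slc16a3: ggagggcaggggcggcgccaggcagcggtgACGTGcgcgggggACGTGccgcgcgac

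The Pgam2 window held the single MEF2 match among the 44 windows (2.27%, against 2.92% of all 32851 windows) and no HIF core, while Pgam1 and Ldha held 3 cores each and Slc16a3 held 2. At least 1 HIF core stood in 36 of the 44 windows (81.8%), against 38.6% of all windows, and at least 2 stood in 20 windows (45.5%, against 13.5%). The members' windows were also richer in G and C, with a median of 61.2% against 52.4%, and the part of base composition in the counts was not tested. The 4 matched genes with no core were Vhl, Tpi1, Gpi1 and Pgam2. A match of letters is not a bound site, and no binding was measured here.

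Before the values of the genes, the arrays themselves need description. Kdm5b signal, relative to the array's 75th percentile on the log2 scale used below, was -2.40 on KO 2, -0.87 on WT 2, -1.81 on WT 3 and -2.26 on KO 3, so the gene was lower on each KO array, in the direction of the label. Against the label of male, Xist, the RNA of the inactive X chromosome, was bright on WT 2 and KO 2 and the Y-linked genes were bright on WT 3 and KO 3. This split runs with the number and not with the genotype, so each result is also given within the number, as KO 2 minus WT 2 and KO 3 minus WT 3, where no replicate exists. All 4 arrays shared 1 slide, where WT occupied the positions 1 and 2 and KO the positions 3 and 4, so slide position and genotype cannot be told apart. The 12 cardiomyocyte markers, well above background on all 4 arrays, averaged 7.81 on KO 2, 6.80 on WT 2, 5.73 on WT 3 and 4.92 on KO 3. All 12 were higher on KO 2 than on WT 2, and 0 were higher on KO 3 than on WT 3. The 10 macrophage and neutrophil markers ran in the opposite order, averaging 1.59 on KO 2, 3.16 on WT 2, 3.54 on WT 3 and 3.83 on KO 3. The 9 fibroblast and scar markers averaged 4.63 on KO 2 and 5.40 to 5.61 on the other arrays. In such bulk tissue, fewer cells of a type and less RNA per cell cannot be told apart.

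No glycolysis or hypoxia gene passed the test between the genotypes. All 36 were well above background on all 4 arrays and all were tested, and 0 were called by limma (adjusted p below 0.05 with more than a 2-fold change), as were 0 of all 28305 tested probes (0%). The adjusted p of all 36 was 0.9999. Among them 0 had an unadjusted p under 0.05, against 1.45% of the tested probes and 1.41% of the 15027 tested genes, and the lowest was 0.256 for Ddit4. Differences of the group means, KO minus WT, ran from -0.86 for the heme oxygenase Hmox1 to 0.51 for Higd1a, a protein of the mitochondrial respiratory chain, and 0 exceeded 2-fold in either direction, against 1.13% of tested genes higher and 2.34% lower in KO. The mean was higher in KO for 27 genes and lower for 9, with a median difference of 0.17, beside 0.04 over all tested genes. Under quantile normalization 18 of the 36 means were higher and the median was -0.01.

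**Figure D1:**
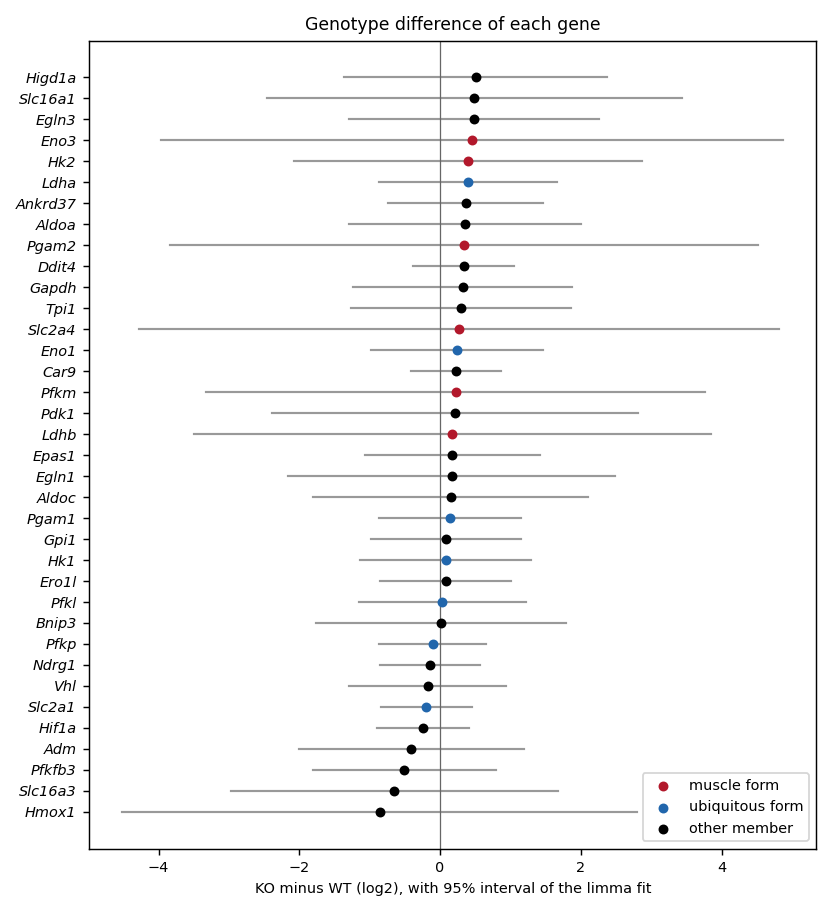
KO minus WT on the log2 scale for each of the 36 genes (points), with the 95% interval of the limma fit across all probes (bars, n = 2 arrays per group) and colours for muscle and ubiquitous forms. Every interval crosses 0, and the 3 widest belong to the muscle forms Slc2a4, Eno3 and Pgam2.

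The intervals of these differences show how little the 4 arrays limit the genotype effect. For the muscle glucose transporter Slc2a4 the 95% interval of the limma fit ran from -4.28 to 4.81, whereas for the carbonic anhydrase Car9, with the smallest standard error (0.22), it ran from -0.41 to 0.86. The difference was smaller than its own standard error for 32 of the 36 genes. In 33 genes the 2 KO arrays stood further apart from each other than the genotypes did, and in 27 genes so did the 2 WT arrays. A difference that misses the threshold here does not show that KO and WT hearts express these genes alike.

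Within the numbers the genes divided. On KO 2 against WT 2, 25 of the 36 genes were higher, with a median of 0.53 beside 0.04 over all tested genes. On KO 3 against WT 3, 23 were lower, with a median of -0.08 beside 0.03. The direction was opposite at the 2 numbers for 26 genes (72.2%, against 55.9% of tested genes), and 19 of these were higher at number 2 and lower at number 3 (52.8%, against 27.7%). The counts of 25, 23 and 19 changed by at most 1 under normexp background correction, a shift by the median, quantile normalization and the authors' values. More than 2-fold higher on KO 2 than on WT 2 were 6 genes (16.7%, background 6.95%), namely Slc2a4, Pfkm, Pgam2, Eno3, Ldhb and Slc16a1, and more than 2-fold lower were Slc16a3 and Hmox1 (5.56%, background 9.38%). On KO 3 against WT 3 the neural aldolase Aldoc was more than 2-fold higher (background 2.58%) and the vasodilator peptide gene Adm more than 2-fold lower (background 1.76%).

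**Figure D2:**
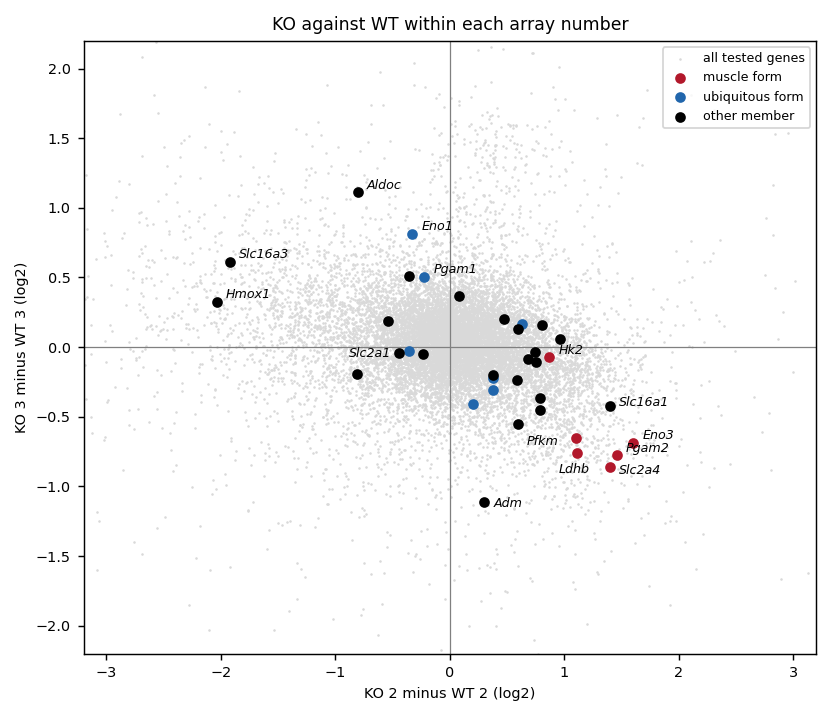
KO 2 minus WT 2 (horizontal, log2) against KO 3 minus WT 3 (vertical, log2) for the 36 genes and, in grey, for all tested genes, of which 139 lie outside the plotted range. The 6 muscle forms lie at the lower right, higher on KO 2 and lower on KO 3, and Hmox1 and Slc16a3 lie at the upper left.

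The array order of the cardiomyocyte markers, KO 2 above WT 2 above WT 3 above KO 3, was shared by 17 of the 36 genes (47.2%), against 19.6% of tested genes. The reverse order was found in 3, Pgam1, Vhl and Hmox1 (8.33%, against 19.3%). By role, the cardiomyocyte order held for 5 of 7 genes of early glycolysis, 5 of 8 of late glycolysis, 3 of 5 of lactate and pyruvate handling, 2 of 5 of oxygen sensing and 1 of 9 hypoxia-induced genes. The part of cell make-up in these values was not tested.

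Glucose entry was measured by a muscle and a ubiquitous transporter. Slc2a4, the insulin-responsive GLUT4 of muscle and fat (probe at chr11:69756073-69756132 on mm9), read 6.27 on KO 2, 4.87 on WT 2, 3.16 on WT 3 and 2.29 on KO 3, so the KO arrays lay on both sides of the WT arrays and 15.7-fold apart. Its mean was 4.01 ± 1.21 in WT and 4.28 ± 2.81 in KO (SD, n = 2). The probe was printed on 10 spots per array, whose log2 signals had an SD of 0.07 to 0.14, so spot error is small beside the distance between the KO arrays. Slc2a1, the GLUT1 transporter of most cells, read 1.97 on KO 2, 2.33 on WT 2, 2.27 on WT 3 and 2.24 on KO 3. The gene was lower on each KO array than on either WT array, with a mean difference of -0.19 (standard error 0.23). Between KO 3 and WT 3 the difference was -0.03.

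The entry steps of glycolysis trap glucose as a phosphate and commit it to breakdown. Hk2, the hexokinase of insulin-sensitive tissue, read 3.75 on KO 2, 2.88 on WT 2, 1.79 on WT 3 and 1.71 on KO 3. Hk1, the hexokinase of most tissues, read 5.10, 4.72, 4.36 and 4.14 on the same arrays. Both ran in the cardiomyocyte order, Hk2 over a 4.10-fold and Hk1 over a 1.95-fold distance between the KO arrays. Another tested Hk1 probe did not run in that order and was higher in KO at both numbers, by 0.38 and 0.23. The remaining tested Hk1 probes did run in it. The phosphofructokinases form the committed step, and their muscle form Pfkm read 6.61 on KO 2, 5.51 on WT 2, 4.18 on WT 3 and 3.53 on KO 3. The liver form Pfkl read 1.60, 1.22, 0.95 and 0.64, and the platelet form Pfkp read 1.30, 1.09, 1.25 and 0.84. The KO arrays thus stood 8.48-fold apart for Pfkm, 1.95-fold for Pfkl and 1.37-fold for Pfkp. A second Pfkp probe was lower in KO at both numbers, by -0.26 and -0.12, without overlap of the groups. The remaining Pfkp probe had the directions of the brightest, at 0.67 and -0.19 within the numbers. Gpi1, the isomerase between hexokinase and phosphofructokinase, was 0.37 higher on KO 2 than on WT 2 and 0.20 lower on KO 3 than on WT 3. Pfkfb3, which makes the sugar phosphate that activates phosphofructokinase, was the exception of the group, lower on KO at both numbers, by -0.82 and -0.19, while its KO 3 signal overlapped the WT arrays. Its other probes were also lower on KO 2 than on WT 2 (-0.37 and -0.75). They were higher on KO 3 than on WT 3 (0.13 and 0.31), so the direction at number 3 depended on the probe.

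Every gene of the later steps had a higher mean in KO (8 of 8, differences of 0.14 to 0.46), and each of the 8 also pointed in opposite ways at the 2 numbers. Under quantile normalization 5 of the 8 means were higher, and those of Aldoa, Gapdh and Pgam1 turned. Eno3, the muscle enolase (chr11:70475929-70475988 on mm9), read 7.69 on KO 2, 6.09 on WT 2, 4.48 on WT 3 and 3.80 on KO 3, a 14.9-fold distance between the KO arrays. Eno1, the enolase of most cells, read 0.31, 0.64, 0.52 and 1.33, lowest where Eno3 was highest and highest where Eno3 was lowest. Pgam2 read 6.82 on KO 2, 5.37 on WT 2, 3.91 on WT 3 and 3.13 on KO 3, and Pgam1 read 4.77, 4.99, 5.06 and 5.56, in the reverse order. These are the promoters shown above with a MEF2 match and with 3 HIF cores, respectively. The pair does not stand for its classes. Of the 5 matched muscle forms, 4 also held a HIF core (6 of 8 windows), and only Pgam2 held a MEF2 match. All 7 ubiquitous forms held a HIF core (10 of 11 windows), and 0 of their windows held a MEF2 match. Aldoa, the main aldolase of muscle, Tpi1, the triose phosphate isomerase, and Gapdh, the dehydrogenase that follows it, were 0.68 to 0.76 higher on KO 2 than on WT 2 and 0.03 to 0.11 lower on KO 3 than on WT 3. Aldoc was 0.80 lower on KO 2 and 1.11 higher on KO 3, each against the WT array of its number.

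Of the 5 genes that handle pyruvate and lactate, 4 were higher on KO 2 than on WT 2 and 3 were lower on KO 3 than on WT 3. Ldhb, the lactate dehydrogenase subunit of heart, read 8.07 on KO 2, 6.96 on WT 2, 5.61 on WT 3 and 4.85 on KO 3, in the cardiomyocyte order. Ldha, the subunit of fast muscle and of most dividing cells and a HIF target, read 7.48, 6.85, 6.36 and 6.52, and was higher in KO at both numbers, by 0.63 and 0.16. The number 3 difference of Ldha was 0.041 under quantile normalization, 0.044 in the authors' values and 0.031 with normexp. Slc16a1, the transporter MCT1 that moves lactate into oxidative muscle, was 1.40 higher on KO 2 than on WT 2 and 0.42 lower on KO 3 than on WT 3. Slc16a3, the exporter MCT4 of highly glycolytic cells (chr11:120820023-120820082 on mm9), read 1.04 on KO 2, 2.96 on WT 2, 2.55 on WT 3 and 3.16 on KO 3. It was 3.78-fold lower on KO 2 than on WT 2 and 1.53-fold higher on KO 3 than on WT 3, so the KO arrays enclosed the WT arrays. Its values are given here because they were seen to be far apart. Pdk1, the kinase that shuts pyruvate out of mitochondria, ran in the cardiomyocyte order, at 0.79 and -0.36 within the numbers. A second Pdk1 probe did not run in that order and was higher in KO at both numbers, by 0.59 and 0.11.

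**Figure D3:**
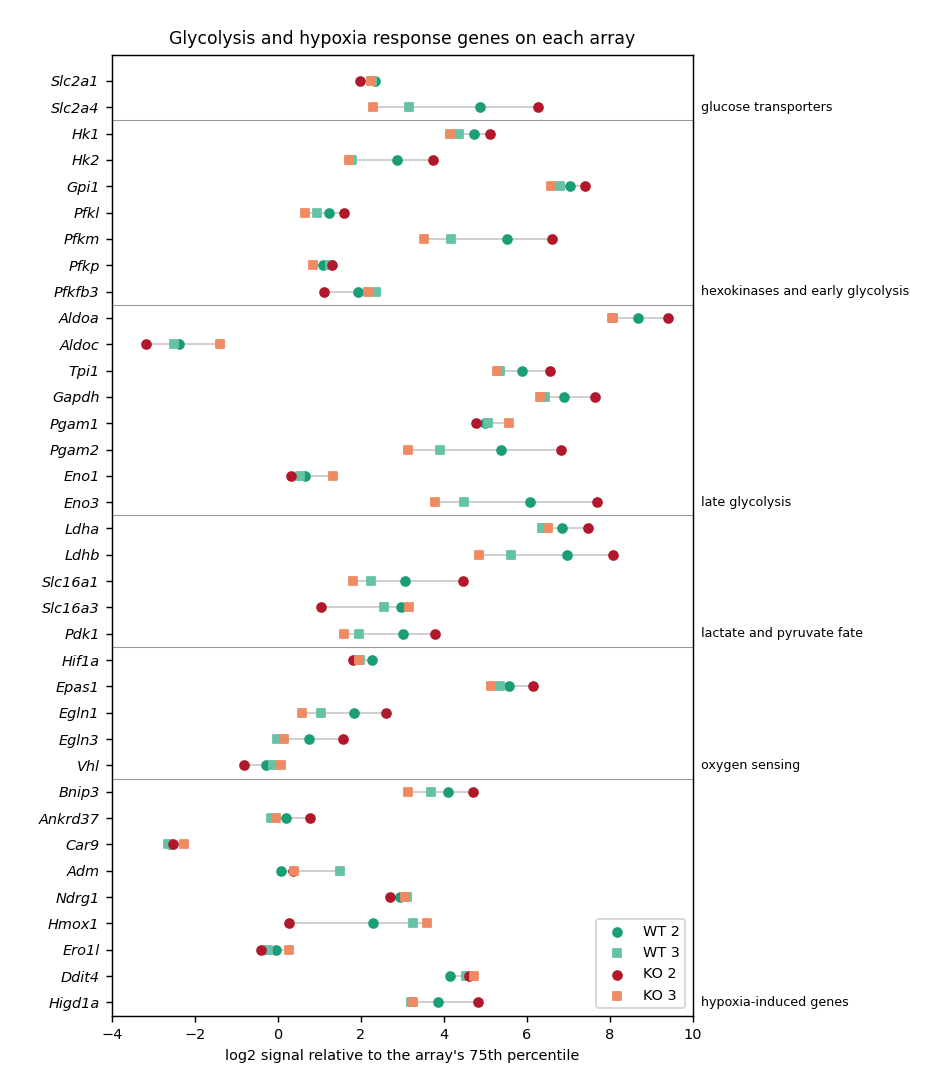
Log2 signal relative to the array's 75th percentile for each of the 36 genes on WT 2, WT 3, KO 2 and KO 3 (points), joined by a line from lowest to highest and grouped by role. The signals of Slc2a4, Pfkm, Pgam2, Eno3 and Ldhb have KO 2 at the right and KO 3 at the left, whereas Hmox1 and Slc16a3 have KO 2 at the left. Positions of different genes are not comparable, since each probe has its own brightness.

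Muscle and ubiquitous isoenzymes were set against each other. Ldhb was counted as a muscle form because it is the subunit of heart, although its counterpart Ldha is also the subunit of fast muscle. The 6 muscle forms, Slc2a4, Hk2, Pfkm, Pgam2, Eno3 and Ldhb, had a median range of 3.45 over the 4 arrays, the 7 ubiquitous forms 0.96, and all tested genes 0.74. All 6 muscle forms ran in the cardiomyocyte order, as did 2 of the 7 ubiquitous forms, Hk1 and Pfkl. All 6 were higher on KO 2 than on WT 2 and lower on KO 3 than on WT 3, with medians of 1.26 and -0.72. These directions held under the 6 scalings and probe summaries tried, but the medians were 0.84 and -0.81 under quantile normalization, where 2 of the 6 group means turned. The ubiquitous forms had medians of 0.20 and -0.03, which were 0.039 and -0.072 under quantile normalization and 0.137 and -0.122 with normexp.

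The 7 pairs were compared by the log2 difference of muscle and ubiquitous form within an array, which does not depend on the scaling shift of that array. The muscle form stood higher relative to its counterpart on WT 2 than on WT 3 and on KO 2 than on KO 3 in 7 of 7 pairs. Against WT of the same number it was relatively higher on KO 2 in 7 of 7 pairs, by 0.48 for Ldhb against Ldha up to 1.93 for Eno3 against Eno1, and relatively lower on KO 3 in 6 of 7, by as much as -1.50 for Eno3 against Eno1. The exception was Hk2 against Hk1, at 0.15. Between the genotypes the change of the pairs ran from -0.22 for Ldhb against Ldha to 0.46 for Slc2a4 against Slc2a1, with a median of 0.21. None of the 7 pairs separated the groups. The exact two-sided permutation p was 0.667 for Hk2 against Hk1 and 1 for each of the other pairs, with adjusted p of 1 for all 7, where the smallest p that 2 arrays against 2 allow is 0.33. Without KO 2 the median change of the pairs was -1.35, and without KO 3 it was 1.64.

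**Figure D4:**
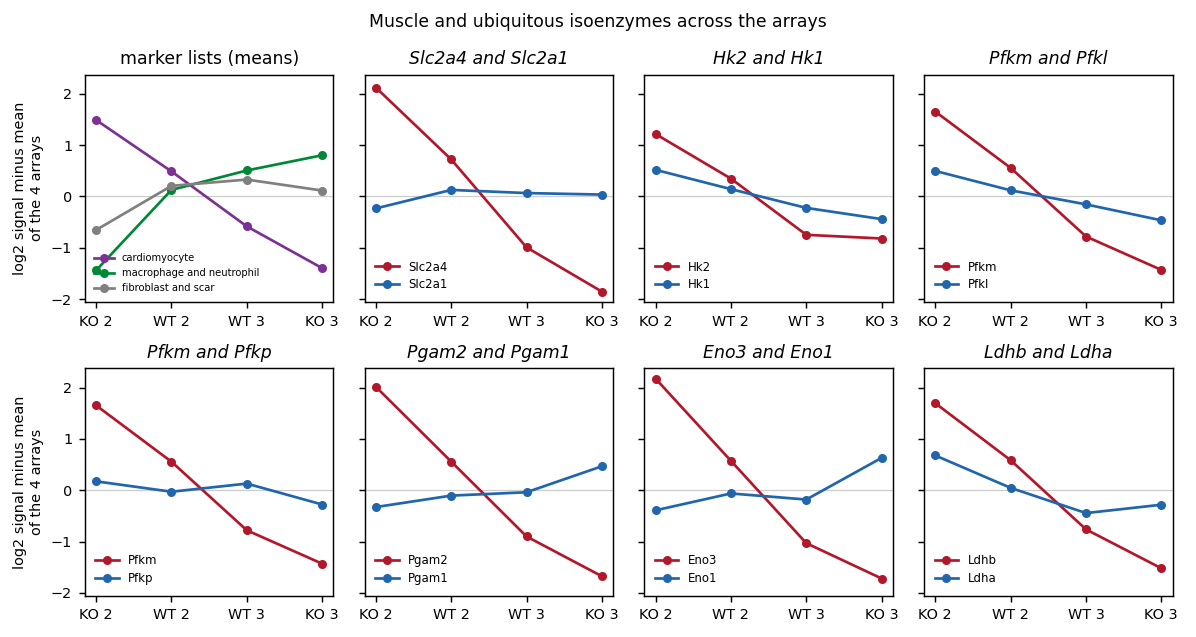
Log2 signal minus its mean over the 4 arrays for muscle forms (red) and ubiquitous forms (blue) of each pair, with the means of 3 marker lists in the first panel, and the arrays placed in the order KO 2, WT 2, WT 3, KO 3. All 6 muscle forms descend from left to right with the cardiomyocyte list, while Pgam1 ascends with the macrophage and neutrophil list and Slc2a1 stays nearly level.

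The 5 oxygen sensing genes had a median range of 1.03 over the 4 arrays. Hif1a, the oxygen-regulated HIF subunit of most cells (chr12:75047269-75047329 on mm9), read 1.81 on KO 2, 2.25 on WT 2, 1.99 on WT 3 and 1.94 on KO 3. The KO arrays had the lower signals, by a mean of -0.25 (standard error 0.23), but at number 3 the distance was -0.04. Epas1, the HIF subunit abundant in endothelium, and Egln1, the main oxygen-sensing hydroxylase, were higher on KO 2 than on WT 2 by 0.58 and 0.78 and lower on KO 3 than on WT 3 by 0.24 and 0.45. Egln3, a hydroxylase that is itself induced by HIF, was higher in KO at both numbers, by 0.81 and 0.16. The ubiquitin ligase gene Vhl was 0.54 lower on KO 2 and 0.19 higher on KO 3 than on the WT arrays of those numbers. These values are of RNA, and HIF activity is set largely at the level of protein.

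The 9 hypoxia-induced genes did not move as a block. Ddit4, an inhibitor of mTORC1 signalling, read 4.61 on KO 2, 4.14 on WT 2, 4.53 on WT 3 and 4.73 on KO 3, and Car9, which regulates pH outside the cell, read -2.53, -2.61, -2.65 and -2.28. In both, the KO arrays lay above the WT arrays, with mean differences of 0.34 (standard error 0.25) and 0.23 (0.22). Ddit4 overlapped between the groups under quantile normalization and in the authors' values. With Slc2a1 and Hif1a below, 2 genes thus stood above and 2 below without overlap (5.56% each), against 13.3% and 8.9% of tested genes. Ankrd37, an ankyrin repeat protein, and Higd1a were higher at both numbers, by 0.60 and 0.13 and by 0.96 and 0.05. A second Higd1a probe differed in direction at number 3, at 0.89 and -0.56 within the numbers. The mitophagy receptor gene Bnip3 was 0.59 higher and 0.55 lower at the 2 numbers, which left a mean difference of 0.02. Ndrg1, a stress-response gene, was lower in KO at both numbers, by -0.23 and -0.05, and Ero1l, an oxidase of the endoplasmic reticulum, was 0.36 lower at number 2 and 0.51 higher at number 3.

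Hmox1, which degrades heme and is abundant in macrophages that take up red cells (chr8:77624207-77624266 on mm9), had the largest mean difference of the 36 genes, and its values and those of Adm were added after they were seen. It read 0.25 on KO 2, 2.29 on WT 2, 3.26 on WT 3 and 3.58 on KO 3. Its order was that of the macrophage and neutrophil markers, with KO 2 lowest and KO 3 highest, and the part of these cells in it was not tested. The 10.1-fold distance between the KO arrays exceeded the mean difference of -0.86 (95% interval -4.52 to 2.81). Adm read 0.36 on KO 2, 0.06 on WT 2, 1.50 on WT 3 and 0.39 on KO 3, so WT 3 stood apart and the remaining arrays lay close together.

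Other genes of the pathways were read from a list of 60, of which 55 were tested. Of these, 0 were called by limma and 0 had an unadjusted p under 0.05. The 30 tested genes of glycolysis and glucose use resembled the set above, with 23 means higher in KO, a median difference of 0.21, and 16 in the cardiomyocyte order (53.3%). The 25 tested hypoxia genes had 8 means higher and 17 lower, a median of -0.20, and 4 in the cardiomyocyte order against 8 in the reverse order. The groups did not overlap for 9 of the 55, with KO higher in 4 and lower in 5, beside 13.3% and 8.9% of all tested genes.

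Among those without overlap, the largest positive differences belonged to Pfkfb1, a regulator of phosphofructokinase (0.94, standard error 0.52), Pklr, the pyruvate kinase of liver and red cells (0.46, 0.28), and Hif3a, a HIF subunit that can restrain the others (0.40, 0.21). Pfkfb1 read 0.27 on KO 2, -1.15 on WT 2, -1.46 on WT 3 and -1.001 on KO 3, so most of its difference came from KO 2. The largest negative differences belonged to the HIF-induced histone demethylase Kdm3a (-0.34, standard error 0.20), the collagen hydroxylase subunit P4ha2 (-0.26, 0.23) and the MYC antagonist Mxi1 (-0.20, 0.22). Kdm3a read 1.13 on KO 2, 1.43 on WT 2, 1.46 on WT 3 and 1.07 on KO 3, with the arrays of each group close together.

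The probes of one gene gave mostly the same direction. Of 24 further probes of the 36 genes, 22 were tested, in 15 genes, and 21 of them had the sign of the brightest probe at number 2 and 17 at number 3. Processed copies of several glycolytic genes exist in the genome, and whether the probes of Gapdh, Aldoa, Pgam1, Eno1, Ldha or Tpi1 also bind such copies was not examined.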

How the data were processed

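The authors scanned the arrays and deposited intensity values from Agilent Feature Extraction, version 10.7.3.1 per the file headers, background-subtracted by spatial detrending, then detrended multiplicatively, with probe positions on mm9. They also deposited a table of log2 values, made with GeneSpring per the methods. Its normalization is not stated. Between 99.90% and 99.96% of its probes per array lay within 0.01 of quantile-normalized log2 processed intensity, with a median of 6.78 in each column, so it is not centred on genes. It served as an alternative.

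The log2 processed signal was shifted by each array's 75th percentile over non-control probes, which was 607.6 on KO 2, 876.3 on WT 2, 976.1 on WT 3 and 885.2 on KO 3. Flagged spots (92 to 116 per array) were left out, spots of a probe were averaged, and 0 non-control spots were saturated. Well above background were 68.1% to 72.0% of probes per array, and those that were so on both arrays of at least 1 group were tested (28305, with 12863 too dim and 6 without a value). KO and WT were compared with limma 3.58.1 in R 4.3.3 (lmFit and eBayes) with Benjamini-Hochberg adjustment over all tested probes, after the code was tested on simulated data. Genes took their brightest probe by mean unscaled log2 signal, with the symbols of the files, of which 35 matched RefSeq directly and 1 by an older symbol. With 2 arrays a group, precision is limited by their number.

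The genes, pairs and lists were chosen with earlier results of these data known, so no list was tested. By rule every gene was named once, per-array values were given for pair genes and for genes without overlap or with a difference over 1, and from the other pathway genes the 3 largest positive and negative differences without overlap were named. Alternatives were normexp with an offset of 50, quantile normalization, a median shift, the authors' values, no filter or a stricter filter on dim probes, a block for the array number, weights for the arrays, trended robust eBayes, the methods' t-test, the mean of a gene's probes, and each array left out in turn. Directions within the numbers under the scalings were added after seeing the data. Marker lists also covered endothelial cells (means of 2.34 to 3.05), skeletal muscle (-2.53 to -2.10) and red cells (0.59 to 2.79). Higher on KO 2 than on WT 2 were 7 of 7 endothelial, 5 of 5 red cell and 7 of 9 skeletal muscle markers. On KO 3 against WT 3 these counts were 1, 0 and 5. The endothelial and red cell lists thus shared these directions with the cardiomyocyte list, but their means did not run in its array order.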

Additional observations from a re-analysis of the deposited data

Results flagged for a closer look

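Before scaling, the log2 signal of the brightest Xist probe reached 13.24 on KO 2 and 14.13 on WT 2, where negative control probes averaged 1.94 and 2.31, although both samples are labelled male. It read 1.92 on WT 3 and 2.01 on KO 3. This drew attention because Xist belongs to none of the comparisons made. On WT 2 and KO 2 the 6 muscle isoenzymes were also higher than on the number 3 array of the same genotype, and the part of sex in the values of the glycolysis and hypoxia genes was not tested.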

How the results depend on the processing

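With each array left out in turn, 0 probes and 0 of the 36 genes were called. The median difference of the genes ran from -0.33 to 0.62 and that of the pairs from -1.35 to 1.64. The sign of 32 genes turned in at least 1 of these fits, and the lowest and highest values were Slc2a4 (-1.72 to 2.26), Hk1 (-0.40 to 0.56), Hk2 (-0.62 to 1.42), Gpi1 (-0.32 to 0.50), Pfkl (-0.45 to 0.51), Pfkm (-1.32 to 1.77), Pfkp (-0.33 to 0.12), Pfkfb3 (-1.03 to 0.015), Aldoa (-0.33 to 1.04), Aldoc (-0.74 to 1.05), Tpi1 (-0.35 to 0.94), Gapdh (-0.33 to 0.98), Pgam1 (-0.26 to 0.54), Pgam2 (-1.50 to 2.19), Eno1 (-0.27 to 0.75), Eno3 (-1.49 to 2.40), Ldha (-0.083 to 0.88), Ldhb (-1.43 to 1.78), Slc16a1 (-0.84 to 1.81), Slc16a3 (-1.71 to 0.41), Pdk1 (-0.89 to 1.31), Epas1 (-0.34 to 0.69), Egln1 (-0.84 to 1.18), Egln3 (-0.23 to 1.19), Vhl (-0.63 to 0.28), Bnip3 (-0.76 to 0.80), Ankrd37 (-0.052 to 0.78), Adm (-1.12 to 0.31), Ndrg1 (-0.32 to 0.040), Hmox1 (-2.52 to 0.81), Ero1l (-0.26 to 0.42), Higd1a (-0.28 to 1.29). The pairs ran as widely, Slc2a4 against Slc2a1 (-1.66 to 2.59), Hk2 against Hk1 (-0.22 to 0.86), Pfkm against Pfkl (-0.87 to 1.25), Pfkm against Pfkp (-0.99 to 1.64), Pgam2 against Pgam1 (-2.04 to 2.44), Eno3 against Eno1 (-2.24 to 2.67), Ldhb against Ldha (-1.35 to 0.91). Slc2a1, Hif1a, Car9 and Ddit4 kept their sign in all of them, as groups without overlap must. A group left with 1 array was assumed to vary like the other group. At an unadjusted p under 0.05, limma gave 9 genes (25.0%, against 24.2% of probes) without KO 3 and 2 (5.56%, against 6.31%) without KO 2.

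With all 4 arrays, adjusted calls were 0 under every alternative run. The methods' t-test without adjustment called 88 probes and 0 of the 36 genes. At an unadjusted p under 0.05, 410 probes by limma became 1162 with normexp, 879 with the methods' t-test, 723 without a filter and 602 with the array number as replicate block, and in each of these 0 of the 36 genes passed. Quantile normalization and the authors' values turned the same results. The signs turned for Hk1 (-0.13 in both), Gpi1 (-0.27 in both), Pfkm (-0.036 and -0.037), Aldoa (-0.085 and -0.081), Gapdh (-0.020 and -0.023), Pgam1 (-0.048 and -0.049), Ldhb (-0.17 and -0.16), Epas1 (-0.057 and -0.056), Bnip3 (-0.16 and -0.17), Pfkm against Pfkl (-0.038 in both) and Eno3 against Eno1 (-0.097 and -0.095). The genes with both KO arrays above fell from 2 to 1 (Car9), and Gpi1 joined those below. Normexp moved the median of all tested probes from 0.02 to 0.13 and turned Pfkl (-0.0074) and Bnip3 (-0.0090). The cause of these turns was not tested. The block left every difference as it was. The array numbers are not said to pair the samples. WT 2 minus WT 3 and KO 2 minus KO 3 correlated at r = 0.57 over 28305 probes, which are not independent replicates, and with 2 numbers this was not taken as pairing.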

Other observations

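Fbp2, the fructose bisphosphatase of muscle, was left out of the tests because it was well above background on 1 array per group. It read -2.64 on WT 2 and -0.39 on KO 2, and did not clear the background on the number 3 arrays. It was thus above background on the number 2 arrays alone, and brighter on KO 2 than on WT 2, as the muscle isoenzymes were. Among the other hypoxia genes, Tfrc, the transferrin receptor, and Lox, which crosslinks collagen, were the only genes with a mean difference over 2-fold, at 1.23 and -1.16, and were chosen after their values were seen. Tfrc read 0.22 on KO 2, -2.27 on WT 2, -2.78 on WT 3 and -2.81 on KO 3. Lox read 0.77 on KO 2, 3.45 on WT 2, 4.13 on WT 3 and 4.50 on KO 3. In both the KO 2 array stood alone and the groups overlapped.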
